A study of Mus musculus with 34 samples.

Results

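Long noncoding RNAs are transcripts without a recognised protein product. They were taken here as genes annotated as lincRNA, named for lying between coding genes, or as antisense, named for running against one. Of 23011 genes in the table, 2075 had one of these annotations, and 186 of them had a mean of at least 2 raw CPM (counts scaled to the library total) over all 34 libraries. Neat1, Malat1, Rmrp and Mhrt were left out by name. The 186 members comprised 94 lincRNA and 92 antisense genes. They were chosen by their level, so the level itself is a description. Just inside the threshold stood 0610040B10Rik with a mean of 2.04 CPM, Gm9917 with 2.02 and 9430037G07Rik with 2.01. Just outside it stood Gm45708 with 1.996 CPM, Gm7008 with 1.995 and 2310016D03Rik with 1.99.

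RNA was sequenced from the soleus, a slow postural hindlimb muscle, and the plantaris, its fast neighbour, of female mice aged 24 months (aged) or 6 months (young). Mice were sedentary or had trained for 8 weeks by progressive weighted wheel running (PoWeR), which is voluntary running on a wheel loaded with added weight, followed by a 24 h wheel lock. Mice were killed after a night without food. The strain is not given in the sources used here, and no genotype or drug is named for any group. Each aged sedentary group had 5 libraries and each other group had 4, with 15237626 to 26250461 counts per library. Whether the libraries of a group came from separate animals is not stated, and the p-values then describe only how far these samples spread, which may be technical.

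The muscle of 1 label did not match its markers. The summed level of 10 slow fibre genes was 46026 to 57306 CPM in aged sedentary soleus and 201 to 2348 CPM in aged sedentary plantaris. It was 45311 to 51205 CPM in the libraries labelled young plantaris and sedentary, within the range of young sedentary soleus (45252 to 56668 CPM). The aged plantaris libraries are titled soleus but have plantaris as source, which their markers match. The young libraries in question are called "labelled young plantaris" throughout. In whole-muscle RNA, fewer cells of a type and less RNA per cell cannot be told apart. The labels name no batch, so the age groups and any difference in how their libraries were made cannot be told apart.

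Noncoding RNAs act in several ways. Some are precursors of microRNAs, short RNAs that pair with messenger RNAs through a seed at bases 2 to 8. Some act in the nucleus on nearby or distant genes, as Xist does on the inactive X chromosome, and for many no function is established. In skeletal muscle the imprinted gene H19, the miR-206 and miR-133b host and the transcripts of the fast myosin cluster are among those studied most. Counting was not stated to use strand, so reads of an antisense RNA and of the coding gene that it overlaps cannot be told apart.

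The microRNAs inside members are shown first, because their host RNAs gave some of the largest differences below. A total of 9 members held an annotated microRNA on their own strand (RefSeq, GRCm38.p6). The lines give mature sequences 5′ to 3′ with the seed in capitals. H19 holds miR-675, Gm28653 holds miR-206 and miR-133b, and 6720427I07Rik holds let-7a-1, let-7f-1 and let-7d. The 3 let-7 microRNAs share the seed GAGGUAG, while the seeds of miR-206 and miR-133b differ from it and from each other.
miR-675-5p: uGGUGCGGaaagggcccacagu
miR-675-3p: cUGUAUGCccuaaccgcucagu
miR-206-3p: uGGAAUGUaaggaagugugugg
miR-133b-3p: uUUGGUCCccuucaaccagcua
let-7a-5p: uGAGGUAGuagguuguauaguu
let-7f-5p: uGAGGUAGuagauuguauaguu
let-7d-5p: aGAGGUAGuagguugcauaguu

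Levels were very uneven. H19 alone made up 53.3% of the members' summed mean level, with 3068 raw CPM (mm10 chromosome 7, 142575529 to 142578143, minus strand). The next were Oip5os1, the conserved RNA also called Cyrano, with 655 CPM and 2900097C17Rik, the mouse counterpart of NORAD, with 486 CPM. Atcayos, antisense to Atcay, had 136 CPM and Xist 120 CPM. Only these 5 members exceeded 100 CPM, and 32 lay between 10 and 100, 36 between 5 and 10 and 113 under 5 CPM. The median member had 4.06 CPM. All members together took 0.295 to 0.919% of a library's counts. From here on, CPM values are adjusted by the trimmed mean of M-values (TMM) factor of each library, and errors after ± are SD for levels and SE for log2 fold changes.

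Of the 186 members, 97 were under 2 CPM on average in 1 or more of the 8 groups and entered through the groups where they were higher. The other 89 reached 2 CPM in every group. Position was shared by many: 96 overlapped a coding gene of the table, 93 of them one on the opposite strand, and 136 lay within 5000 bp of a coding gene. The annotation did not always match this position. A coding gene was overlapped by 8 lincRNA members, and 88 of the 92 antisense members overlapped one on the opposite strand. For 175 members the annotation used for comparison (GENCODE M21) held a transcript, and 24 of these matched another gene's transcript over at least 50% of their length at 95% identity or more. The match was on the opposite strand for 17, in most cases the coding gene they overlap, and on the same strand for 7. Values of those 7 may be shared with a copy: Gm10076 matches Rpl41 over 383 of 384 bases, and all 2527 bases of Gm7292 occur in 2900097C17Rik. Gm47283 and Gm47547 are also among the 7. Opposite-strand matches may share reads as well, since counting was not stated to use strand. Among them, Gm10874 matches Got2 and Gm48228 matches Selenok, coding genes that they do not overlap. GENCODE M21 types the members B430218F22Rik, Gm47283, Gm9821, Gm10762 and Gm10638 as protein-coding. These members were kept because the deposited table annotates them as lincRNA or antisense.

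Spread between replicates was measured as the median over groups of the SD of log2 levels within a group. It was smallest for 2900097C17Rik (0.13), Gm46620 (0.14), Gm20300 (0.14) and D830039M14Rik (0.16). It was largest for Gm27177 (0.82), the miR-206 host Gm28653 (0.80), Gm20735 (0.75) and Gm16185 (0.68). Members of 2 to 4 CPM had a median spread of 0.34, the same as coding genes of that level. At 30 CPM and above, the 11 members had a median of 0.25 beside 0.16 for 3733 coding genes.

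The comparison of soleus with plantaris asks which noncoding RNAs differ between a slow and a fast muscle. In aged sedentary mice, 53 members were higher and 30 lower in soleus of 185 tested by edgeR's quasi-likelihood test with Benjamini-Hochberg adjustment over all genes (adjusted p under 0.05). This is 44.9% of members, beside 32.9% of all genes (17% higher and 15.8% lower). DESeq2, the other tool used, called 84 members, beside 28.2% of all genes. Among the 89 members that reached 2 CPM in every group, 23 were higher and 22 lower. The median log2 difference was 0.19 over members and 0.05 over all genes. This test held no term for soleus and plantaris libraries of the same number, which it treated as independent.

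Gm31251 runs antisense within Myh7, the heavy chain gene of slow fibres (chromosome 14, 54979393 to 54991601, plus strand). In aged sedentary soleus it had 4.76, 9.08, 3.10, 5.82 and 5.18 CPM in replicates 12 to 16. In aged sedentary plantaris the values were 0.128, 0.0601, 0, 0.134 and 0.0635 CPM. Every soleus library thus lay far above every plantaris library. The log2 difference was 6.10 ± 0.48 (edgeR adjusted p = 8.64e-09), and Myh7 itself differed by 5.68 ± 0.70. As a ratio per 1000 counts of Myh7, Gm31251 had a median of 0.243 in the soleus and 0.148 in the plantaris libraries, with ranges of 0.145 to 0.325 and 0 to 1.06 that overlap.

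Gm12295 is a lincRNA 7665 bp from Myocd, a cofactor gene of cardiac and smooth muscle transcription (chromosome 11, 65277654 to 65365798, minus strand). It had 5.85, 11.7, 7.95, 7.27 and 10.1 CPM in aged sedentary soleus. Aged sedentary plantaris had 0.510, 0.241, 0.0599, 0.200 and 0 CPM. The groups did not overlap, and the log2 difference was 5.39 ± 0.43 (edgeR adjusted p = 1.12e-08). After these, the largest differences with higher soleus levels were those of 5430401H09Rik (4.47), Gm4524 (4.22), which runs antisense to the collagen prolyl hydroxylase gene P3h2, and Gm14964 (3.74), antisense to Nrxn2. P3h2 (3.999) and Nrxn2 (2.50) were higher in soleus too. Next in size were 5730419F03Rik (3.27), A730036I17Rik (3.17), the miR-206 host Gm28653 (3.16), Gm44949 (3.06) and Gm5532 (2.88). Gm5532 had 69.5 ± 16.6 CPM (n = 5) in soleus and 9.60 ± 4.93 CPM (n = 5) in plantaris. H19, by far the most abundant member, was also higher in soleus, with 2080 ± 295 against 915 ± 292 CPM (n = 5 each; log2 1.22 ± 0.27, edgeR adjusted p = 0.00188).

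On the fast side stood 2310065F04Rik, known as linc-Myh, a lincRNA beside the fast myosin heavy chain cluster and 10170 bp from Myh3 (chromosome 11, 67112461 to 67120080, minus strand). Its aged sedentary plantaris values were 19.1, 20.6, 25.7, 29.2 and 23.7 CPM. Aged sedentary soleus had 2.41, 2.42, 3.81, 2.58 and 1.76 CPM, with no overlap (log2 -3.15 ± 0.28, edgeR adjusted p = 1.04e-07). Myhas, antisense to the fast myosin gene Myh1 (chromosome 11, 67211256 to 67237573, minus strand), had 72.8, 85.3, 70.1, 73.0 and 72.3 CPM in aged sedentary plantaris. Its soleus values were 18.6, 21.8, 13.2, 16.99 and 19.9 CPM (log2 -2.02 ± 0.39, edgeR adjusted p = 0.000972). Myh1 differed by -1.91 ± 0.33, and Myhas per 1000 counts of Myh1 had a median of 3.99 in soleus and 4.57 in plantaris.

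The stretches before the RefSeq starts of these 2 genes are shown because both RNAs were higher in plantaris and lie in the same cluster. The windows run from 250 bases before to 50 after the RefSeq start (RefSeq promoters, GRCm38.p6, minus strand). The Myhas window lies wholly inside the gene span given above, so it is not the stretch before the start of the counted gene. They were searched on both strands for TATAAA, for GGAATG (an MCAT element) and for the E-boxes CAGCTG and CACGTG, and matches are in capitals. Both windows hold TATAAA, and 2310065F04Rik also holds GGAATG, while neither E-box was found. TATAAA occurs in 14.2% of 27025 promoters of this length and in 14.1% of the 99 member promoters with a sequence. GGAATG occurs in 14.6% of all and 16.2% of member promoters.
2310065F04Rik, chr11:67120031-67120330: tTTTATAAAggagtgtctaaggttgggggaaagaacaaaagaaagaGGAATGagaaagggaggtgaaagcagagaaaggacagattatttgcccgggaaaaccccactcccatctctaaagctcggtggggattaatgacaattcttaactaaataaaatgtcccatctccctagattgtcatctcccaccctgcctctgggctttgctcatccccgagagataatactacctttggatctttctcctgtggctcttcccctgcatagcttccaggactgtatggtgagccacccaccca
Myhas, chr11:67237232-67237531: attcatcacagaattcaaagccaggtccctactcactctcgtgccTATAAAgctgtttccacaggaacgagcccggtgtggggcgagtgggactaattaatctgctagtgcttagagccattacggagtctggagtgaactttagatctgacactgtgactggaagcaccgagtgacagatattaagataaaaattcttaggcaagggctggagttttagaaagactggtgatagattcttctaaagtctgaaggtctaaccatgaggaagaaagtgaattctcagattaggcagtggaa

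The largest difference towards plantaris was that of Gm12319, a lincRNA 97 bp from the actin-binding gene Pfn1 on the same strand (-4.38 ± 0.46, edgeR adjusted p = 3.88e-07). Pfn1 differed by -0.47 ± 0.09. The other leaders were Gm10605 (-2.39), Gm15675 (-2.33), Gm26740 (-1.68), Gm15179 (-1.50), A930016O22Rik (-1.48), 2310001H17Rik (-1.45) and Gm15943 (-1.34). A930016O22Rik lies antisense to Ckm, the muscle creatine kinase, which differed by -1.45 ± 0.13. Gm15179 lies antisense to Des, which encodes the intermediate filament desmin, and Des did not pass the test (-0.06 ± 0.10). So antisense RNAs did not all move with the gene that they overlap.

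**Figure D1:**
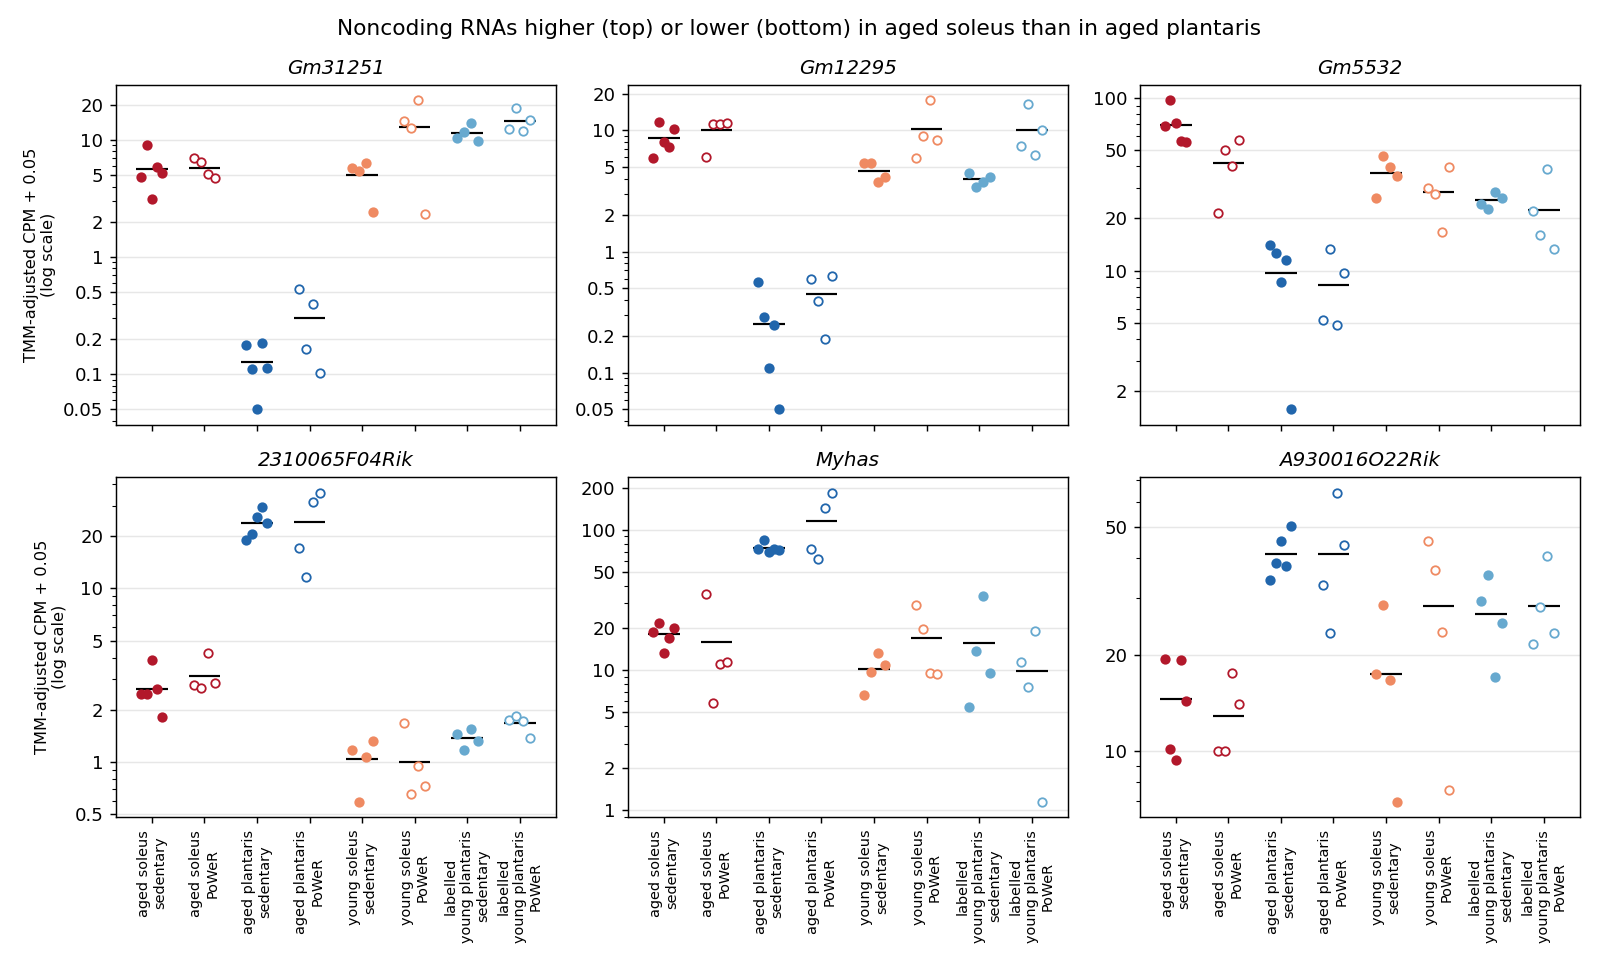
Each panel plots the TMM-adjusted CPM plus 0.05 on a log axis for 1 gene, with 1 point per library, filled for sedentary and open for PoWeR, and a bar at the group mean. By mean, Gm31251, Gm12295 and Gm5532 are lowest in the aged plantaris groups, and 2310065F04Rik, Myhas and A930016O22Rik are highest there, while the libraries labelled young plantaris lie near the soleus groups for Gm12295 and 2310065F04Rik and at or above them for Gm31251.

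Position was compared over pairs of a member and the coding gene within 5000 bp. Of 57 called members in such pairs in aged sedentary mice, the coding gene was called for 30, in the same direction for 27 and the opposite for 3. Where the member was not called, the coding gene was called for 27 of 71. The pairs can share reads, as noted above, and no test was made of this difference.

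The same muscle comparison in aged PoWeR mice uses other libraries. There, 35 members were higher and 26 lower in soleus of 185 tested, or 33.0%, beside 22.5% of all genes by the same test (12.2% higher and 10.3% lower). DESeq2 called 64 members, beside 20.6% of all genes. Among the 89 members that reached 2 CPM in every group, 12 were higher and 15 lower by edgeR. A total of 50 members were called under both conditions, all in the same direction, 30 higher and 20 lower. They are 60.2% of the sedentary and 82.0% of the PoWeR calls. The same overlap was not counted over all genes, so nothing particular to the members is read from it. Gm12295 (4.60 ± 0.43), Gm31251 (4.56 ± 0.46) and Gm4524 (4.25 ± 0.65) led again, and Gm12319 (-4.19 ± 0.52), 2310065F04Rik (-2.93 ± 0.31) and Myhas (-2.85 ± 0.45) stood on the other side. The difference between the 2 conditions was tested as an interaction. By edgeR it called 0 of 185 members and 0.0% of all genes. At an unadjusted p under 0.05 by edgeR stood 23 of 185 members beside 1785 of 14823 genes, a similar share. DESeq2 called 1 member, beside 2.67% of all genes.

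**Figure D2:**
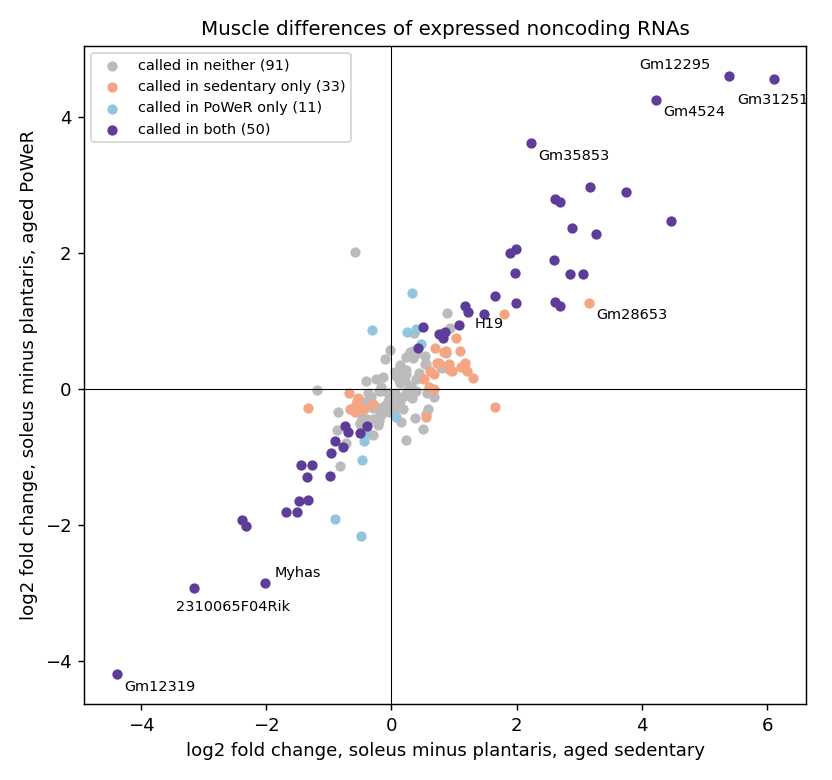
Each point is 1 of 185 tested noncoding RNAs, with its log2 fold change of soleus minus plantaris in aged sedentary mice on the x axis and in aged PoWeR mice on the y axis, coloured by where it passed the test. The 50 members called under both conditions lie at the lower left and the upper right, with Gm31251 and Gm12295 at one end and Gm12319 at the other.

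Between young sedentary soleus and the libraries labelled young plantaris, only 3 members were called, or 1.62%, beside 3.26% of all genes. Of all genes 2.02% were higher and 1.24% lower in soleus, and DESeq2 called 7 members, beside 11.7% of all genes. Labels of young soleus and labelled young plantaris share some numbers, and whether such libraries came from the same mice is not stated. The test treated them as independent. Gm46620, 1404 bp from Zfp236, was lower in soleus (18.5 ± 1.32 against 30.03 ± 2.42 CPM, n = 4 each). So was Gm26782, antisense to the telomerase-associated gene Tep1 (9.87 ± 0.944 against 18.2 ± 3.50 CPM). Gm15816, antisense to Ank1, was higher (6.55 ± 1.02 against 3.32 ± 0.457 CPM). Their edgeR adjusted p-values were 0.00161, 0.0337 and 0.0217.

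The age comparison was made in sedentary soleus, the muscle whose label and markers match at both ages. By edgeR, 76 members were higher and 18 lower in aged soleus of 186 tested, or 50.5%, beside 36.2% of all genes. Higher calls made up 40.9% of members against 19.5% of all genes, and lower calls 9.68% against 16.7%. DESeq2 called 97 members, beside 32.0% of all genes. The median log2 difference was 0.52 over members and 0.03 over all genes. Among the 89 members that reached 2 CPM in every group, 26 were higher and 8 lower, with a median of 0.28. That is 38.2% called, near the 36.2% of all genes, though more were higher than lower. Of the 97 members under 2 CPM in 1 or more groups, 61.9% were called, 50 higher and 10 lower. Mitochondrially encoded genes took 13.1 to 14.5% of counts in the aged and 21.3 to 23.1% in the young group. The summed tenocyte markers (7 genes, all lower in aged soleus) ran from 63.4 to 126 CPM in the aged and 284 to 587 CPM in the young group. Summed Schwann cell markers (8 genes) ran from 53.0 to 78.3 CPM in the aged and 93.5 to 118 CPM in the young group. Those of endothelial cells (8 genes) nearly touched, with 176 to 302.2 CPM in the aged and 302.3 to 370 CPM in the young group. The part of these measures in the results was not tested.

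**Figure D3:**
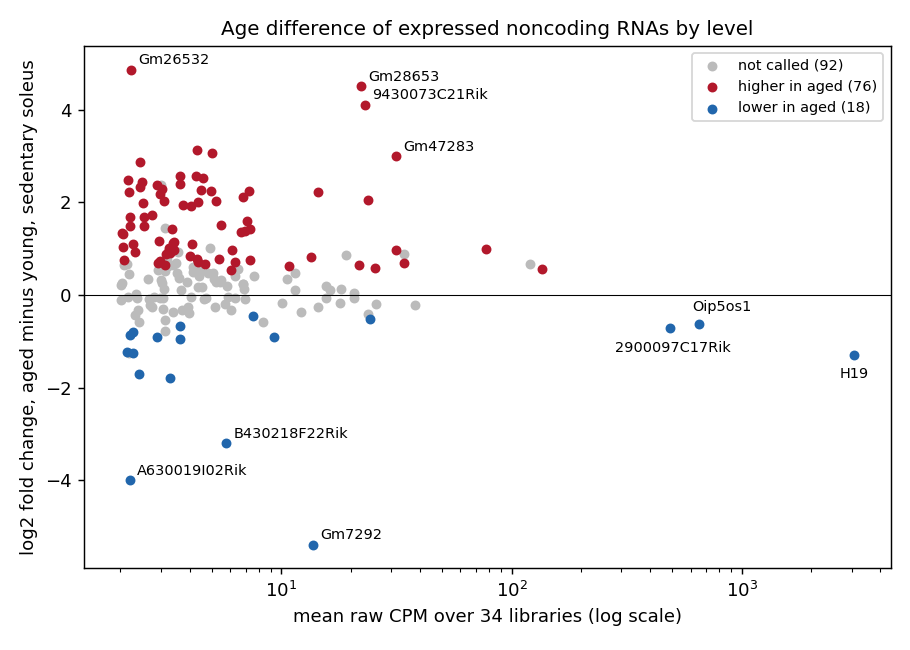
Each of 186 points is a noncoding RNA, with its mean raw CPM over 34 libraries on a log x axis and its log2 fold change of aged minus young in sedentary soleus on the y axis. The 76 called higher lie mostly under 10 CPM, as most members do. At 5 CPM or more 27 of 73 members were called higher, and under 5 CPM 49 of 113. H19, Oip5os1 and 2900097C17Rik, the 3 most abundant, are among the 18 called lower.

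The 3 most abundant members were all lower in aged soleus. H19 had 1923, 2405, 2345, 2027 and 1699 CPM in aged sedentary soleus (replicates 12 to 16). Young sedentary soleus had 5184, 5947, 5221 and 4885 CPM. The lowest young library had over 2 times the level of the highest aged one (log2 -1.29 ± 0.18, edgeR adjusted p = 1.78e-05). The range over all 18 aged libraries, 403 to 3019 CPM, also lay below the range over all 16 young ones, 3830 to 6980 CPM. Oip5os1 fell from 717 ± 87.5 CPM (n = 4) to 449 ± 21.7 CPM (n = 5). 2900097C17Rik fell from 611 ± 24.6 to 356 ± 18.4 CPM (log2 -0.72 ± 0.09, edgeR adjusted p = 6.74e-06).

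Gm7292 showed the largest fall with age. It had 28.6, 21.8, 20.8 and 30.9 CPM in young sedentary soleus. In aged sedentary soleus it had 0.383, 0.746, 0.599, 0.721 and 0.455 CPM (log2 -5.39 ± 0.21, edgeR adjusted p = 5.60e-13). Across all groups the 18 aged libraries ran from 0.220 to 1.52 CPM and the 16 young ones from 20.8 to 45.8 CPM. Since the whole of Gm7292 occurs within 2900097C17Rik at up to 100% identity, its reads could have been assigned to either gene, and its value is uncertain. The other large falls were A630019I02Rik (-3.999 ± 0.59), antisense to Cmya5, and B430218F22Rik (-3.20 ± 0.57), antisense to the mitochondrial ribosome gene Mrps30. GENCODE M21 types B430218F22Rik itself as protein-coding. Cmya5, which encodes a large muscle protein, also fell, by 0.68 ± 0.15 on the log2 scale, and Mrps30 did not pass the test (-0.10 ± 0.12).

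Of the 9 members that hold a microRNA, 6 were higher and 1, H19, was lower in aged soleus, beside 19.5% and 16.7% of all genes. Of the 6, 5 averaged under 2 CPM in young sedentary soleus (0.618 to 1.72 CPM) and entered through groups where they were higher, so nothing is read from this count. Of the hosts that reached 2 CPM in every group, Gm28653 was higher, H19 lower and 2900076A07Rik (-0.17) did not pass. Gm28653, the host of miR-206 and miR-133b (chromosome 1, 20669882 to 20684298, plus strand), had 43.5, 120, 105, 35.5 and 77.5 CPM in aged sedentary soleus. In young sedentary soleus it had 1.93, 3.80, 2.96 and 5.22 CPM. The groups did not overlap (log2 4.51 ± 0.78, edgeR adjusted p = 0.000493), although the aged libraries differed among themselves by more than 3 times. The mature microRNAs shown above were not measured here.

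Aged plantaris carried less of this host, with 12.7, 12.99, 8.68, 6.54 and 2.60 CPM in the sedentary group, and all 5 aged soleus values lay above these (log2 3.16 ± 0.83, edgeR adjusted p = 0.00817). In the aged PoWeR groups the muscle difference did not pass (1.27 ± 0.87, edgeR adjusted p = 0.344): plantaris had 9.58, 40.7, 3.50 and 2.10 CPM in replicates 10, 12, 14 and 15, overlapping soleus. Aged PoWeR soleus had 34.6, 79.9, 12.9 and 7.54 CPM of Gm28653 in replicates 10, 12, 14 and 15, and the training difference did not pass the test (-1.17 ± 0.63, edgeR adjusted p = 0.478). The 2 higher of these, replicates 10 and 12, also had the highest sums of 7 denervation response genes in that group, 305 and 359 CPM, beside 96.1 and 146 CPM in replicates 14 and 15. In the sedentary group, with 35.5 to 120 CPM of Gm28653, that sum was 100 to 124 CPM. In aged PoWeR plantaris the order differed: replicate 12, with the most Gm28653, had a sum of 111 CPM, and replicate 10 had the highest sum, 207 CPM. The part of the denervation genes in the level of Gm28653 was not tested.

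The let-7 host 6720427I07Rik (chromosome 13, 48532905 to 48546500, minus strand) had 4.98, 5.78, 4.08, 5.58 and 5.41 CPM in aged sedentary soleus. Young sedentary soleus had 1.55, 0.407, 1.36 and 0.755 CPM (log2 2.37 ± 0.43, edgeR adjusted p = 0.000307). Every aged library of either muscle (2.22 to 6.88 CPM) lay above every young one (0.239 to 2.11 CPM). Snhg20, which also hosts a small nucleolar RNA, rose from 1.41 ± 0.552 to 7.17 ± 1.56 CPM. Meg3, the imprinted RNA of the Dlk1-Dio3 locus, rose from 1.72 ± 0.492 to 6.83 ± 2.64 CPM, and Ftx, next to Xist in the X inactivation centre, from 0.618 ± 0.175 to 2.82 ± 0.452 CPM. Gm35853, the host of miR-1941, was the last of the 6 (1.72 ± 0.48).

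At the fast myosin cluster, 9430073C21Rik, antisense to Myh2 (chromosome 11, 67195680 to 67199234, minus strand), had 45.4, 50.7, 73.6, 53.8 and 38.9 CPM in aged sedentary soleus. Young sedentary soleus had 2.43, 1.56, 4.86 and 3.48 CPM. The log2 difference was 4.11 ± 0.34 (edgeR adjusted p = 1.85e-07), while Myh2, the heavy chain of fast oxidative fibres, differed by 1.01 ± 0.20. As a ratio per 1000 counts of Myh2 the antisense RNA had a median of 3.18 in the aged and 0.363 in the young group. Neighbouring Myhas did not pass the test (0.89, adjusted p = 0.14), and its median per 1000 counts of Myh1 was 3.99 in the aged and 10.6 in the young group. Gm31251 at Myh7 did not pass either (0.23).

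The other large rises with age were those of Gm26532 (4.87 ± 0.40), 1069 bp from Zswim4, Gm20735 (3.14), Gm38102 (3.08), Gm47283 (2.997), Gm44949 (2.88), AI480526 (2.58), 4932422M17Rik (2.56) and Gm15675 (2.53). AI480526 overlaps both Gm38102 and 4932422M17Rik on the opposite strand over more than 50% of a transcript, so these 3 do not count as independent cases. Gm47283, typed as protein-coding in GENCODE M21, matches Gm21887 over 86.5% of its transcript, and its reads may be shared. Further falls were those of Gm49164 (-1.80), Gm13943 (-1.70), Gm12473 (-1.26), 0610038B21Rik (-1.24), Gm45051 (-0.96) and Gm20186 (-0.91). Of 62 called members in pairs with a coding gene within 5000 bp, the coding gene was called for 29, in the same direction for 22, and for 33 of 68 where the member was not called.

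Small nucleolar RNA hosts carry guide RNAs for ribosome assembly in the introns of their precursors. The list of such hosts and of translation-linked noncoding RNAs extends beyond the members. Of its 21 genes 18 were tested, and with age 11 were higher and 1 lower, with a median of 1.51 beside 0.03 over all genes, of which 19.5% were higher and 16.7% lower. Its 3 members differed from one another. Snhg12 rose from 1.02 to 3.95 CPM (log2 1.99) and Snhg20 by 2.40, whereas Snhg6 did not pass the test (-0.32, adjusted p = 0.17). Of 7 imprinted noncoding RNAs tested, 3 were higher and 2 lower, beside the same shares of all genes, and the members among these were Meg3 (2.03), Airn (0.97), H19 (-1.29) and, not past the test, Kcnq1ot1 (1.46, adjusted p = 0.074). Of 3 tested genes of the X inactivation centre only Ftx passed. Xist had 126 CPM in aged and 81.5 CPM in young sedentary soleus (adjusted p = 0.095).

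**Figure D4:**
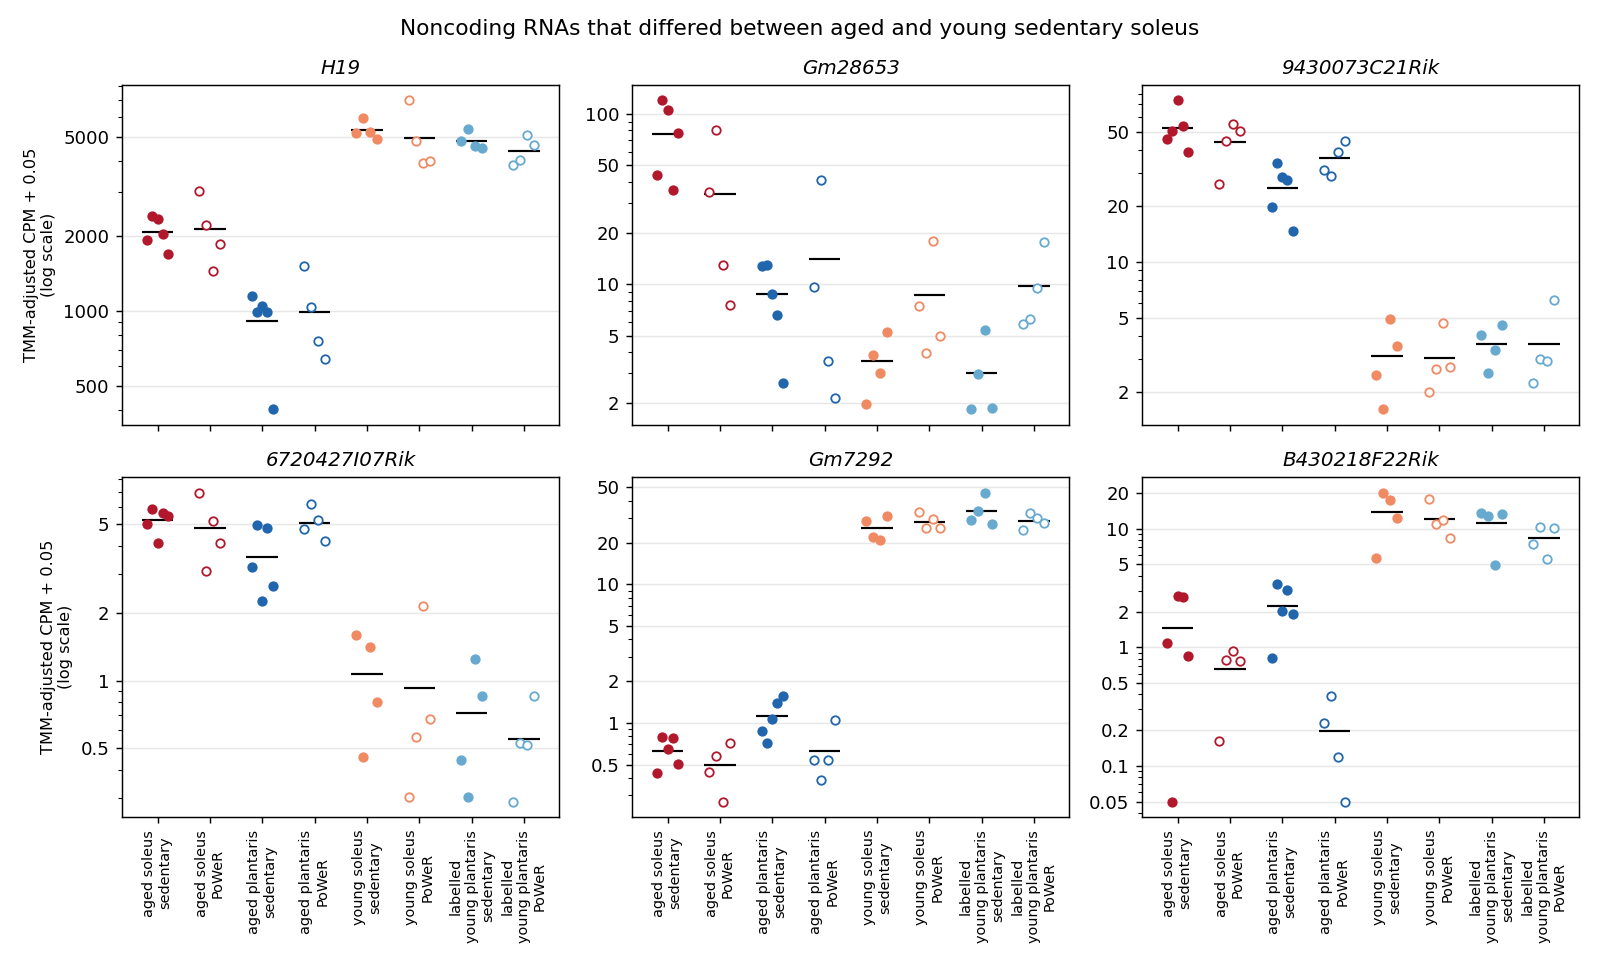
Each panel plots the TMM-adjusted CPM plus 0.05 on a log axis for 1 gene, with 1 point per library, filled for sedentary and open for PoWeR, and a bar at the group mean. H19, Gm7292 and B430218F22Rik are lower in all 18 aged than in all 16 young libraries, 9430073C21Rik and 6720427I07Rik are higher in all of them, and Gm28653 is highest in aged sedentary soleus with a wide spread.

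Training was compared with sedentary libraries within each muscle and age. In aged soleus 5 members fell and 0 rose of 186 tested by edgeR, or 2.69%, beside 0.857% of all genes and 0.388% of all genes that fell (0.469% rose); DESeq2 called 7 members, beside 2.7%. Among the 89 members that reached 2 CPM in every group only 1 was called by edgeR, or 1.12%, near the share of all genes. In young soleus 7 rose and 13 fell, or 10.8%, beside 12.9% of all genes (5.97% rose and 6.89% fell); DESeq2 called 30, beside 19.8%. Among those 89 members 2 rose and 7 fell. Other measures also moved in young soleus without overlap, from sedentary to PoWeR: the mitochondrial share of counts from a range of 21.3–23.1% to 10.7–18.5%, and the summed adipocyte markers (7 genes) from 214–309 to 139–199 CPM. The summed macrophage markers (6 genes) went from 23.9–45.3 to 47.9–85.001 CPM, the satellite cell markers (5 genes) from 26.7–34.02 to 34.4–43.9 CPM and the denervation response genes (7 genes) from 93.7–104 to 113–119 CPM. Their part in the calls was not tested. In aged plantaris 1 member fell, beside 0.0262% of all genes (0.0131% in each direction), and DESeq2 called 2, beside 0.821%. In the libraries labelled young plantaris 1 fell, beside 0.223% of all genes (0.151% rose and 0.072% fell), and DESeq2 called 8, beside 1.58%. A total of 25 members were called in at least 1 of the 4, and 2 in more than 1, Gm47547 and Gm49477. These counts were not made over all genes, so nothing particular to the members is read from them. The difference between the aged and the young soleus effect was called by edgeR for 0 members and 0.0% of all genes. At an unadjusted p under 0.05 by edgeR stood 26 of 186 members beside 1995 of 14934 genes, a similar share. DESeq2 called 0 members, beside 0.539% of all genes.

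Gm47547 (chromosome 14) fell with training in soleus of both ages; in GENCODE M21 it runs antisense to Dydc2. In aged soleus it had 10.7, 7.71, 8.06, 9.85 and 9.05 CPM in sedentary replicates 12 to 16. The PoWeR values were 3.47, 2.77, 4.40 and 4.90 CPM in replicates 10, 12, 14 and 15. All PoWeR libraries lay below all sedentary ones (log2 -1.22 ± 0.18, edgeR adjusted p = 0.00498), and the call held in all 9 fits that left out 1 library. In young soleus the sedentary values were 7.21, 7.05, 8.60 and 7.49 CPM and the PoWeR values 5.11, 4.004, 3.81 and 3.50 CPM, again with no overlap (-0.86 ± 0.19, edgeR adjusted p = 0.00928). In the libraries labelled young plantaris the change was -1.34 (adjusted p = 0.079) and in aged plantaris -0.50 (adjusted p = 0.66). Its transcript resembles that of Gm8113 over 2713 bases at up to 96.0% identity, so part of its reads may belong to a copy.

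Gm49477, 12621 bp from the DNA repair gene Smug1, had 3.01, 3.17, 2.61, 4.08 and 4.097 CPM in aged sedentary soleus. Aged PoWeR soleus had 1.17, 0.784, 1.37 and 1.38 CPM (-1.52 ± 0.36, edgeR adjusted p = 0.0471). No library of one group reached the other, but the call was lost in all 9 fits that left out 1 library. In young soleus it fell from 3.68 ± 0.947 to 1.55 ± 1.002 CPM (n = 4 each; -1.21 ± 0.36, adjusted p = 0.033 by edgeR), with overlap, and the call held in 3 of 8 such fits. The other falls in aged soleus were those of AI838599 (5.53 ± 0.642 to 2.34 ± 0.998 CPM), Gm50321 (13.1 ± 0.933 to 6.89 ± 1.61 CPM) and A730036I17Rik (16.1 ± 3.87 to 8.86 ± 2.32 CPM). Each had no overlap, and they held in 4, 2 and 2 of 9 fits. Gm47547, AI838599, Gm50321 and A730036I17Rik were higher in soleus than in plantaris in both aged conditions. That was so for 30 of the 185 members tested, and the share over all genes was not counted. Gm49477 went the other way, being lower in soleus in aged PoWeR mice (-2.16, edgeR adjusted p = 2.68e-05). In aged sedentary mice its muscle difference did not pass the test (-0.49). The aged soleus libraries enter both the training and the muscle comparisons, so these differences are not independent.

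Among rises in young soleus, Gm13943 (chromosome 2, 77314751 to 77317035, plus strand) had the smallest p-value. Its sedentary values were 2.18, 2.98, 2.43 and 2.90 CPM and its PoWeR values 4.55, 5.26, 7.02 and 6.48 CPM, with no overlap (1.19 ± 0.22, edgeR adjusted p = 0.00504). In aged soleus it went from 0.765 ± 0.133 to 1.44 ± 0.162 CPM, also without overlap, but did not pass (0.91 ± 0.24, adjusted p = 0.082 by edgeR). Gm10435 (1.35) and Gm26604 (1.28) rose as well. Gm26604 runs antisense to the calcium release channel gene Ryr1, which also rose (0.60 ± 0.16). Gm12295 (1.197), higher in slow muscle above, A530017D24Rik (0.68), 4930429F24Rik (0.48) and Uckl1os (0.47) were the other rises.

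The falls in young soleus were led by 5430401H09Rik (-2.37), Gm37422 (-1.49), Gm14261 (-1.43), Gm49477 and Proscos (-1.17). 5430401H09Rik, the third leader on the soleus side above, had 0.808, 2.98, 2.77 and 2.84 CPM in sedentary and 0.884, 0.186, 0.401 and 0.366 CPM in PoWeR libraries. These overlapped at sedentary replicate 1. 6230400D17Rik, antisense to Chchd1, Fut11 and the vesicle coat gene Sec24c, had 4.97, 7.39, 6.80 and 6.68 CPM in sedentary and 4.17, 2.61, 3.41 and 2.77 CPM in PoWeR libraries (-0.97 ± 0.19, edgeR adjusted p = 0.00667). It lay lower in every PoWeR library, while Sec24c did not pass the test (0.11 ± 0.08). Gm11716 (-0.89), Gm44386 (-0.81), Gm15417 (-0.73), 2810402E24Rik (-0.72), Snhg6 (-0.60) and Atcayos (-0.47) made up the rest with Gm47547.

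Young soleus PoWeR replicate 3 had an rRNA repeat share of 0.423% of counts, under the 0.7% that the other young soleus libraries exceeded. Without that library 8 members were called in place of 20, and 8 with a term for such libraries; leaving out sedentary replicate 2 gave 6 calls, sedentary replicate 3 gave 12, and PoWeR replicate 2 gave 10. The calls of Gm13943, 6230400D17Rik, Gm47547 and Gm44386 held in all 8 fits that left out 1 library. In aged plantaris B430218F22Rik went from 0.765, 3.37, 1.98, 3.005 and 1.84 CPM to 0.182, 0.340, 0.0700 and 0 CPM (-3.81 ± 0.61, edgeR adjusted p = 0.0339), and the call held in 2 of 9 such fits. In the libraries labelled young plantaris Gm15179, the desmin antisense RNA, fell from 1.82 ± 0.0837 to 0.764 ± 0.235 CPM (adjusted p = 0.0446 by edgeR), and its call held in 2 of 8 fits. Under that label, PoWeR replicates 1, 2 and 4 (0.242, 0.326 and 0.282%) and sedentary replicate 3 (0.578%) had an rRNA repeat share under 0.7%. The others had 2.73 to 3.71%, so this share and training largely coincide there. H19 did not pass the test in any of the 4 training comparisons and its groups overlapped in each, with 2133 ± 669 CPM in aged PoWeR and 4925 ± 1428 CPM in young PoWeR soleus.

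**Figure D5:**
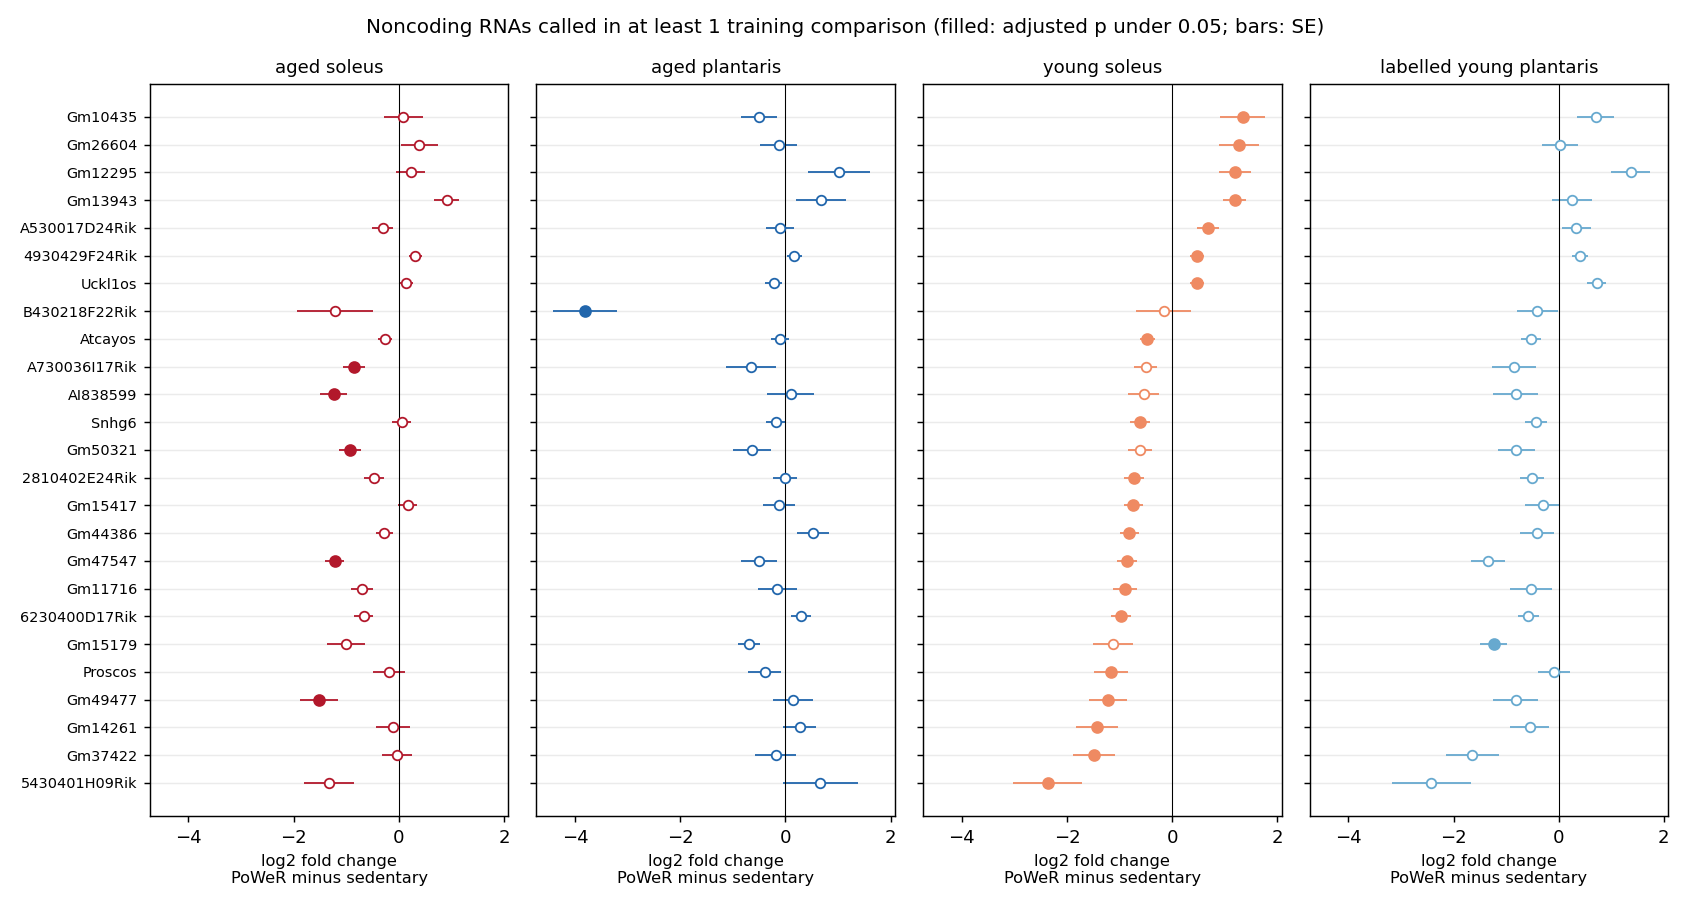
The 4 panels give the log2 fold change of PoWeR minus sedentary (x axis, bars SE) for the 25 noncoding RNAs called in at least 1 of the comparisons, with filled points where the adjusted p was under 0.05. Gm47547 lies below 0 in all 4 panels and is filled in both soleus panels, whereas most of the 20 members filled in young soleus are open in aged soleus.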

How the data were processed

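Members and gene lists were chosen with earlier results of these data known. The deposited table holds expected counts, the authors' estimated read counts per gene; 26.7% of values were not whole. Per the submitters' processing notes, STAR 2.7.3a, Partek and DESeq2 were used on mm10, with no role or order stated. Counts were rounded. Each muscle's 17 libraries (18 aged libraries for muscle contrasts, 16 young) were fitted with a mean per group in edgeR 4.0.16 (R 4.3.3; TMM factors, filterByExpr with a minimum count of 10, robust quasi-likelihood F test), adjusted over all genes. A test on simulated counts was run first. DESeq2 1.42.0 was an alternative, as were RLE factors, no filter, only the groups compared, an rRNA repeat term, the replicate block and each library left out.

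Named members are the 12 most abundant, up to 10 called per direction in each comparison by size (otherwise the 2 smallest p), members of fixed lists, and coding genes within 5000 bp of them. Transcript copies were searched with BLAST in GENCODE M21, and were examined after the values had been seen. Same-numbered soleus and plantaris libraries deviated together in aged PoWeR (correlations 0.120 to 0.195 in all 4 pairs), so these numbers were read as pairs. In aged sedentary mice, replicates 13 to 16 also correlated best with their own number (0.108 to 0.204), and replicate 12 did not (0.031). Same-numbered sedentary and PoWeR libraries gave -0.106 to 0.0696 and were not read as pairs. The main fits held no pair term and treated all libraries as independent. Only the replicate block, an alternative, took pairs into account. The source name gave the muscle where title and source name differed.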

Additional observations from a re-analysis of the deposited data

Results flagged for a closer look

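Among 168 combinations of a member and a group (21 members), 17 held a library whose gap to the nearest other library was large for the range of its group; chance flags about 1 in 20 groups. In the aged groups, the values that stood apart were H19 at 403 CPM in plantaris sedentary replicate 16 (others from 991), Oip5os1 at 672 in plantaris sedentary 15, Myhas at 85.3 in plantaris sedentary 13 and A530017D24Rik at 2.16 in plantaris sedentary 14. In plantaris PoWeR 12, Gm20300 had 32.4 CPM. In aged soleus, Xist had 140 CPM in PoWeR 10, Gm37422 had 4.76 and Gm10435 had 8.05 in PoWeR 12, Gm10435 had 4.68 in sedentary 14, and 5430401H09Rik had 0.448 in PoWeR 10 (others from 5.55).

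In young soleus, sedentary replicate 2 had 43.1 CPM of Xist (others from 91.2), and sedentary replicate 1 had 0.808 of 5430401H09Rik. In the libraries labelled young plantaris, sedentary replicate 3 had 29.3 CPM of Gm10076 and 4.86 of B430218F22Rik. PoWeR replicate 3 of that label had 5.88 of A730036I17Rik, and PoWeR replicate 4 had 1.28 of Gm37422 and 7.32 of Gm10435. The sedentary replicate 3 and PoWeR replicate 4 of that label are among its libraries with an rRNA repeat share under 0.7%; the part of this in the values was not tested.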

How the results depend on the processing

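The age count (94 members) and the 2 aged muscle counts (83 and 61) stayed within 1.5 times under RLE factors, no filter, DESeq2, fits of the compared groups and the omission of any 1 library (83 to 91, 75 to 83 and 48 to 62). With members at 5 CPM or more, fewer genes by construction, they were 35, 47 and 30. The training counts moved more, and the cause was not tested. In aged soleus 5 calls became 3 at 5 CPM or more, 0 with the replicate block and 1 to 3 with a library left out. In young soleus 20 became 10 at 5 CPM or more, 8 with the rRNA repeat term, 4 with only the groups compared and 6 to 29 with a library left out (30 with DESeq2). In aged plantaris 1 became 0 with no filter, the replicate block or only the groups compared, 2 with DESeq2 and 0 to 1 with a library left out. In the libraries labelled young plantaris 1 became 0 with no filter, with the rRNA repeat term and at 5 CPM or more, 8 with DESeq2, 4 with only the groups compared and 0 to 3 with a library left out. Young soleus against the labelled plantaris gave 3, then 7 with DESeq2, 8 with the rRNA repeat term, 6 with only the groups compared and 1 to 4 with a library left out. The muscle interaction gave 0, then 1 with DESeq2 and 0 to 2 with a library left out; the age interaction stayed at 0 in every fit run, the one over all 34 libraries included. The replicate block gave 93 members for the sedentary and 68 for the PoWeR muscle comparison. Sedentary and PoWeR numbers did not pair. Over single named genes, 1309 results under alternatives kept direction and side of the threshold, 149 lost the call, 7 gained it and 0 reversed. At a median of 4.06 CPM, small differences of most members were not detectable.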
